A study of Mus musculus with 24 samples.

Results

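The mouse genes named Zfp followed by a number alone are here called the numbered zinc finger genes, and 234 of them were expressed in these CD4+ T cells. The deposited table of 22009 named genes held 364 such genes, with Zfp36 left out because it encodes an mRNA-decay factor of another family. Of these, 6 were at 0 in every library, 124 were above 0 but averaged less than 2 RPKM over the 24 libraries, and 234 averaged 2 RPKM or more and are the members described here. RPKM is the number of reads per kilobase of transcript, scaled to the mapped reads of the library, so levels of different genes can be compared per length. The members closest to the threshold were Zfp969 at 2.02, Zfp455 at 2.02 and Zfp273 at 2.04 RPKM. Just outside it were Zfp810 at 2.00, Zfp947 at 1.96 and Zfp41 at 1.90 RPKM. For 29 members the mean was under 2 RPKM in at least 1 of 8 groups of libraries (the groups being resting cells, the 6 time points and actinomycin), and 12 members were under it in resting cells. Such genes passed through the groups in which they were high, so the counts below describe the chosen genes only. The 12 include Zfp69, Zfp189, Zfp239, Zfp296 and Zfp719, whose rises from resting cells are described below. The adjusted p-values of these rises do not account for that choice.

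The cells were CD4+ T cells of WT C57BL/6 mouse spleen, purified by negative selection from pooled animals. The labels call them purified CD4+ cells and the study's methods call them naive, so whether memory cells had been removed is not settled by these sources. The 24 libraries were 2 of resting cells, 18 of cultures and 4 of cells kept with actinomycin. Th0 cultures received anti-CD3 and anti-CD28, Th1 cultures also anti-IL-4 and IL-12, and Th2 cultures IL-4 with antibodies against IL-12 and IFN-γ, with 1 library for each condition at 4, 8, 12, 16, 20 and 24 h. The other 4 libraries came from cells that had been stimulated for 16 h, under a skewing condition that the sources used here do not give, before actinomycin was added to block transcription for 0, 1, 2 or 4 h. All libraries came from wild-type cells, and nothing in the labels says that those of a group came from separate pools, so p-values measure only the spread between these libraries.

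Most proteins encoded by these genes bind DNA through tandem C2H2 zinc fingers, in which a pair of cysteines and a pair of histidines hold a zinc ion. A large share of them carry a KRAB domain, which recruits TRIM28 (KAP1), the scaffold that brings the histone methyltransferase SETDB1, heterochromatin protein 1 and the NuRD complex to silence transposable elements and other targets. KRAB zinc finger genes arose by repeated duplication and lie in clusters. Other numbered genes encode proteins of a different kind, among them ribosome biogenesis factors, ubiquitin ligases and RNA-binding proteins. Messenger RNAs of transcriptional regulators are often short-lived, and AU-rich elements in a 3′ UTR, whose core TATTTAT is bound by the ZFP36 family, are one known signal for decay.

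Because decay after actinomycin is one of the measurements, the 3′ UTRs of the members were searched for TATTTAT on the strand of the gene. For each gene, the transcript with the longest coding sequence was searched. At least 1 copy was found in 66 of 233 coding members (28.3%), compared with 26.5% of 9323 other coding genes that averaged 2 RPKM or more. The UTRs of the members were longer, however (median 1104 against 905 bases). The following stretches from the GENCODE M21 transcripts on GRCm38 come from members whose course or slope is described below, with the heptamer in capitals and 10 bases on each side. The first pair had among the steepest falls after actinomycin. Zfp169 was at 3.98, 3.07, 3.30 and 7.67 RPKM after 0, 1, 2 and 4 h with actinomycin, above its start only in the last library. Zfp831 and Zfp367 fell during activation, Zfp945 was lower in Th2, and Zfp719 rose during activation.
Zfp667 (chr7:6307114-6307140, + strand): aaatcctctaTATTTATataagtaaac
Zfp84 (chr7:29779381-29779407, + strand): ttcaaaggttTATTTATtatatgtaag
Zfp169 (chr13:48488721-48488747, - strand): aaggtatcggTATTTATgttgtggggc
Zfp831 (chr2:174705990-174706016, + strand): cactgaacttTATTTATgaaacatcta
Zfp367 (chr13:64134920-64134946, - strand): tgaaatagatTATTTATaagatcattt
Zfp945 (chr17:22847569-22847595, - strand): gttgtgttgcTATTTATgtgcatgtca
Zfp719 (chr7:43591487-43591513, + strand): aatgaaatttTATTTATcacagatcta
The heptamer thus lay in genes that moved in either direction. It contains ATTTA, and a match is a description of the sequence rather than evidence of a working element.

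The libraries held between 17512385 and 33017133 mapped reads, recovered from the RPKM values. For the 68 members (29.1%) whose values were whole multiples of what 1 read is worth, the median was between 243 and 695.5 reads per member, depending on the library. The resting libraries differed with an SD of the log2 difference of 0.19 over the members and 0.18 over all 10897 genes tested. The 8 T cell markers were present throughout, with a summed level between 1328 and 2098 RPKM in the time course. Markers of other cells fell with time: the 7 red cell genes in the table, haemoglobins included, summed to between 38837 and 42382 RPKM in resting cells and between 142 and 212 RPKM at 24 h, the 10 monocyte and macrophage genes to between 573 and 592 and then between 8.14 and 12.7 RPKM, and the 6 B cell genes to between 66.8 and 77.6 and then between 9.52 and 19.1 RPKM. None of the genes on these 3 lists was at 0 in all libraries of a group. Their part in the changes against resting cells was not tested. Since the labels tag the resting libraries differently from the cultures, activation and preparation cannot be told apart. In bulk RNA, fewer cells of a type and less RNA per cell cannot be told apart.

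The members were genes of low expression. Their median level was 8.21 RPKM (quartiles 4.69 and 14.0), compared with 17.95 RPKM for the 9965 named genes that averaged 2 RPKM or more. Only 3 members had a mean of at least 50 RPKM and 67 had a mean under 5 RPKM. By the annotation, 233 members were coding and 1, Zfp125, was a pseudogene. The predicted proteins of 228 members held at least 1 C2H2 finger, with a median of 10 and up to 37. A match to a pattern of the KRAB A box was found in 116 members, which had a median of 12 fingers, and was not found in 117, which had a median of 8. Among 9323 other genes examined, 0.526% held such a match.

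The members were clustered in the genome. Chromosome 7 held 54 of them, chromosome 17 held 32 and chromosome 13 held 20. For 117 members (50%) the name of an adjacent coding gene also began with Zfp and a number, with or without letters after it. This was so for 80 of the 116 members with a KRAB match and for 37 of the 117 without. Related copies share sequence: 46 members had over 10% of their 50-base windows in transcripts of other genes and 15 had over 50%, so that reads of these genes could have been assigned to a copy. The exons of 79 members overlapped those of another annotated gene, 59 of them on the opposite strand, and whether counting used strand is not given in the sources used here. Among the members named below, those with exons overlapping a gene on the opposite strand were Zfp26, Zfp52, Zfp54, Zfp106, Zfp143, Zfp296, Zfp335, Zfp367, Zfp407, Zfp410, Zfp428, Zfp593, Zfp597, Zfp652, Zfp710, Zfp740, Zfp748 and Zfp866, and those overlapping one on the same strand were Zfp87, Zfp91, Zfp414, Zfp652, Zfp708, Zfp866 and Zfp983. Their values cannot be told apart from those of the overlapping gene where reads of both were counted.

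The median numbered zinc finger gene stayed near its resting level during activation, with different members high at different times. From resting cells through 24 h, the highest mean of the members was at 4 h for 74 of them and in resting cells for 55. The lowest mean was in resting cells for 68, at 20 h for 52 and at 24 h for 48. These times were counted for members only, so no share over all genes stands beside them. The range between the highest and the lowest of the 7 time points was at least 2-fold for 41 members (17.5%), while 46.4% of the 10897 genes tested had such a range. The median range was 0.71 on the log2 scale for the members and 0.94 for all genes. This difference in range is given as a description, since the members were chosen on their level and low genes are shrunk by the constant of 0.5 RPKM added before logarithms were taken.

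**Figure D1:**
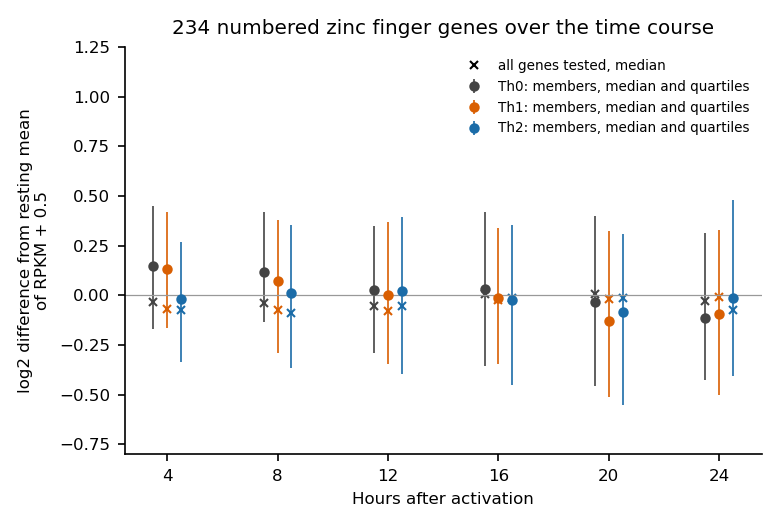
Median log2 difference from the mean of the 2 resting libraries (RPKM + 0.5) for the 234 members in each culture (circles, bars from the lower to the upper quartile) and for all 10897 genes tested (crosses), against hours after activation, with conditions in colours. The median of the members lay at 0.15 in Th0 and 0.13 in Th1 at 4 h and at -0.02 in Th2, and between -0.11 and -0.02 at 24 h.

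The median difference of the members from resting cells was 0.15 for the Th0 culture at 4 h, 0.13 for Th1 and -0.02 for Th2. At 24 h the values were -0.11 for the Th0 culture, -0.10 for Th1 and -0.02 for Th2. The median of all genes tested stayed between -0.09 and 0.00 in the 18 cultures. The members thus lay slightly above the other genes at 4 h in all 3 cultures, and at 20 h slightly below them in all 3. At 4 h, 81 members were above both resting libraries in all 3 cultures, against 23.9% of all genes tested, and 57 were below both, against 33.9%. At 8 h the counts were 68 and 50 (29.2% and 37% of all genes), at 12 h 87 and 82 (37.3% and 43%), at 16 h 87 and 88 (39.8% and 40.8%), at 20 h 78 and 101 (41% and 41.9%) and at 24 h 75 and 88 (38.7% and 41.9%). As shares of the members, 34.6% lay above and 24.4% below at 4 h, and 32.1% above and 37.6% below at 24 h.

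At 4 h, 9 members had changed at least 2-fold at an adjusted p under 0.05 (limma, with Benjamini-Hochberg adjustment over all genes tested), of which 6 rose and 3 fell. Over all genes tested 10.6% were called at this time, 2.61% as higher and 7.97% as lower, compared with 3.85% of the members. The median log2 change was 0.10 for the members and -0.04 for all genes. Without the Th2 cultures 15 members were called, 11 of them higher. Under quantile normalization the split was 19 higher and 3 lower. Over all genes tested, 284 were higher and 868 lower in the main fit. These counts were 350 and 932 without the Th2 cultures, and 501 and 755 under quantile normalization.

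The largest rise was that of Zfp948, a KRAB zinc finger gene. Its level was 2.05 RPKM in both resting libraries and 19.4 RPKM in Th0, 30.7 in Th1 and 31.1 in Th2 at 4 h. The cultures and the resting libraries did not overlap at any time point. The log2 change at 4 h was 3.40 (SE 0.21, adjusted p = 6.23e-09). It was highest at 8 h in Th1 and Th2, with 41.5 and 48.3 RPKM, and at 12 h in Th0, with 29.6 RPKM, and then declined to between 13.8 and 16.7 RPKM at 24 h, where its log2 change from resting cells was 2.60 (SE 0.21, adjusted p = 3.4e-08).

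The second largest rise was in its neighbour Zfp52, which also carries a KRAB match. The level of Zfp52 was 9.91 and 8.03 RPKM in resting cells and 27.4, 46.1 and 30.7 RPKM in Th0, Th1 and Th2 at 4 h, a log2 change of 1.87 (SE 0.22, adjusted p = 9.9e-06). Unlike Zfp948 it was still between 38.7 and 40.6 RPKM at 24 h. Both genes lie on the + strand of chromosome 17 of GRCm38, Zfp52 from 21535539 to 21562601 and Zfp948 from 21567008 to 21588699, with 4406 bases between them. Within 300 kb on either side there were 7 members in all, and none of the other 5 was called at 4 or 24 h. Their log2 changes at 4 h were -0.16 for Zfp677, -0.02 for Zfp54, 0.35 for Zfp51, 0.43 for Zfp53 and 0.02 for Zfp983, with SE between 0.17 and 0.22. Of the 50-base windows of Zfp948 0.115% occurred in other genes, and of those of Zfp52 0.869%.

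Zfp69 is a KRAB gene known from a diabetes locus of the mouse. It stood at 1.05 and 1.29 RPKM in resting cells and at 6.73 RPKM in Th0, 3.25 in Th1 and 4.51 in Th2 at 4 h, a log2 change of 1.63 (SE 0.28, adjusted p = 0.000326). The rise was brief: at 24 h the 3 cultures were at 1.38, 0.887 and 1.02 RPKM. Zfp281, a regulator of pluripotency genes, was at 25.4 and 23.8 RPKM in resting cells and at 46.6, 60.0 and 57.1 RPKM at 4 h, with a log2 change of 1.13 (SE 0.22, adjusted p = 0.0009).

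Zfp189 rose by 1.15 (SE 0.17, adjusted p = 8.35e-05) on the log2 scale at 4 h, from 1.72 and 1.42 RPKM to between 3.72 and 4.58 RPKM. Zfp972 rose by 1.40 (SE 0.25, adjusted p = 0.000416), but 55.7% of its windows occurred in other genes. Among the members that fell, Zfp467, which acts in the choice between fat and bone lineages, went from 7.14 and 9.66 RPKM to between 2.02 and 3.22 RPKM (log2 change -1.57, SE 0.31, adjusted p = 0.000933). Zfp808 went from 7.60 and 6.82 RPKM to between 1.37 and 2.44 RPKM (log2 change -1.62, SE 0.22, adjusted p = 4.76e-05), with 28.2% of its windows shared. For Zfp993 the log2 change was -1.18 (SE 0.14, adjusted p = 1.1e-05), and 86.8% of its windows were shared, most of them with Zfp991.

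**Figure D2:**
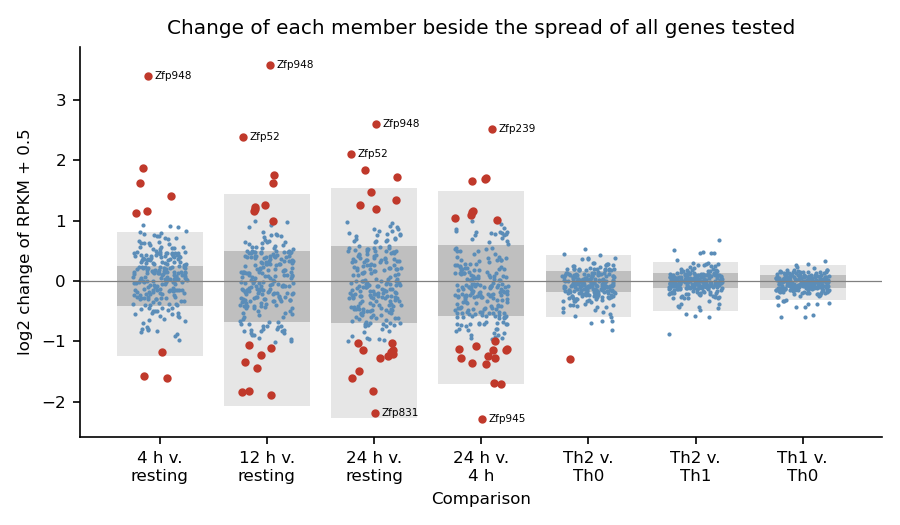
log2 change of RPKM + 0.5 of each of the 234 members in 7 comparisons (dots, with called members large and red, and the largest named), beside all genes tested (dark band, between the quartiles; light band, between the 5th and 95th percentiles). Zfp948 had the highest values against resting cells, and 1 member, Zfp945, was called between conditions.

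At 12 h, 17 members were called against resting cells, 9 higher and 8 lower, compared with 27.1% of all genes tested (10.7% higher and 16.4% lower). At 24 h the number was 20, 8 higher and 12 lower, compared with 30.1% (12.7% higher and 17.4% lower). The shares of the members were 7.26% and 8.55%, and no test of the difference was made. The balance depended on the scaling. At 12 h it was 12 higher and 7 lower with median-of-ratios scaling and 28 and 4 with quantile normalization. With haemoglobin genes left out it was 8 and 12. Over all genes tested, the main fit gave 1163 higher and 1787 lower at 12 h. The alternatives, in the same order, gave 1441 and 1555, 1529 and 1460, and 1021 and 1964. At 24 h the members had 12 and 10 with median-of-ratios scaling, 10 and 10 with upper-quartile scaling, and 26 and 8 with quantile normalization. All genes tested had 1389 and 1891 in the main fit at 24 h. In the same order, the alternatives gave 1724 and 1621, 1522 and 1768, and 1777 and 1612. The members with a KRAB match were called at 24 h in 6 of 116 cases and the other coding members in 14 of 117.

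Zfp719 rose by 1.16 (SE 0.19, adjusted p = 5.93e-05) on the log2 scale at 12 h, from 1.35 and 1.80 RPKM in resting cells to 3.51, 4.45 and 4.47 RPKM in Th0, Th1 and Th2. Several members rose slowly. Zfp239, a zinc finger gene without a KRAB match, was at 1.77 and 1.10 RPKM in resting cells, between 0.458 and 0.814 RPKM at 4 h, and at 5.44, 5.27 and 6.79 RPKM in Th0, Th1 and Th2 at 24 h. Its log2 change from resting cells was 1.72 (SE 0.32, adjusted p = 0.000183), and from 4 to 24 h it was 2.52 (SE 0.28, adjusted p = 1.78e-06). Zfp296, known from pluripotent cells, was at 0.761 and 0.777 RPKM in resting cells and between 3.86 and 4.16 RPKM at 24 h (log2 change 1.84, SE 0.32, adjusted p = 9.97e-05). Zfp428 rose by 1.35 (SE 0.28, adjusted p = 0.000539), Zfp770 by 1.20 (SE 0.15, adjusted p = 5.78e-06) and Zfp771 by 1.47 (SE 0.25, adjusted p = 9.14e-05).

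Zfp831 fell most at 24 h. It stood at 12.7 RPKM in both resting libraries, at 9.78, 6.66 and 5.29 RPKM in Th0, Th1 and Th2 at 4 h, and at 2.68, 2.11 and 2.43 RPKM at 24 h (log2 change -2.19, SE 0.28, adjusted p = 5.09e-06). Zfp652, which acts with the corepressor CBFA2T3 and has 11.9% of its windows in other genes, fell from 18.1 and 18.2 RPKM to 7.27, 6.42 and 5.00 RPKM (log2 change -1.49, SE 0.26, adjusted p = 0.000102). Zfp287 fell by 1.61 (SE 0.38, adjusted p = 0.00135) on the log2 scale and Zfp949 by 1.27 (SE 0.37, adjusted p = 0.00655). Without resting replicate 1 the value for Zfp949 was -1.02 and was not called. Zfp945 fell by 1.83 (SE 0.62, adjusted p = 0.0158), a call that was lost when either resting library or the Th1 cultures were left out. The value was then -1.78 without the first resting library, -1.87 without the second and -1.62 without Th1.

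**Figure D3:**
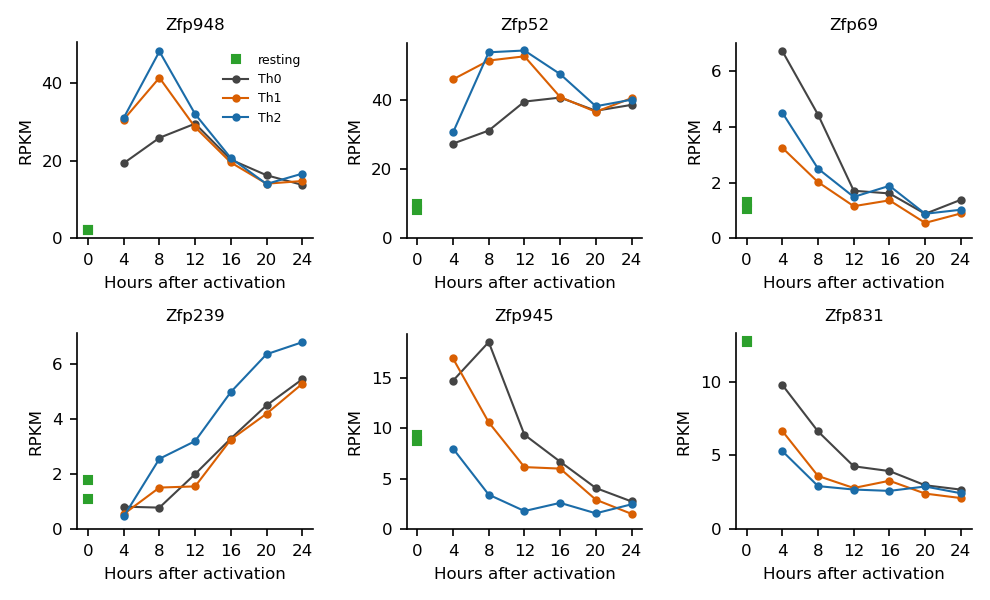
RPKM of 6 members against hours after activation, with the 2 resting libraries at 0 h (squares) and 1 library per condition and time point (lines). Zfp948 and Zfp52 stayed above both resting libraries in all 18 cultures, Zfp69 was highest at 4 h, Zfp239 rose to 24 h, and Zfp945 and Zfp831 ended below their resting levels.

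Zfp367 was lower at 12 h and spanned its resting levels at 24 h. It was at 15.4 and 16.4 RPKM in resting cells, between 3.21 and 4.81 RPKM at 12 h and between 13.4 and 18.9 RPKM at 24 h. The log2 change was -1.82 (SE 0.25, adjusted p = 1.43e-05) at 12 h and 0.03 (adjusted p = 0.94) at 24 h. Between 4 and 24 h, 23 members were called, 9 higher and 14 lower, compared with 26.2% of all genes tested (13% higher and 13.2% lower). The split was 13 and 13 with quantile normalization and 7 and 18 with haemoglobin genes left out. Over all genes tested it was 1418 and 1439 in the main fit, and 1462 and 1336 and then 1225 and 1641 in these alternatives. The falls over this interval included genes that were high early, such as Zfp169 (log2 change -1.71, SE 0.30, adjusted p = 0.000113), Zfp260 (-1.37, SE 0.29, adjusted p = 0.000617) and Zfp69 (-1.70, SE 0.25, adjusted p = 2.29e-05). The rises included Zfp808, which was also called lower at 4 and 12 h and at 24 h was at 6.74, 6.76 and 9.46 RPKM.

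The most abundant member was Zfp207 (BuGZ), a spindle assembly factor that binds BUB3. It stood at 91.1 and 88.7 RPKM in resting cells and at 134, 136 and 156 RPKM at 24 h, a log2 change of 0.65 (adjusted p = 2.9e-05) that was below the 2-fold threshold. Zfp106, an RNA-binding protein needed by motor neurons, was at 49.7 and 53.4 RPKM in resting cells and between 91.4 and 107 RPKM at 24 h (log2 change 0.91, adjusted p = 5.8e-05). Zfp740 was next with 55.1 and 55.7 RPKM in resting cells and between 37.0 and 43.3 RPKM at 24 h. The other 5 of the most abundant 8 were Zfp62, Zfp330, Zfp281, Zfp592 and Zfp91.

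Of the 11 members known to act on RNA, ribosomes or ubiquitin, 1 was called at 12 h and at 24 h and none at 4 h, compared with 27.1%, 30.1% and 10.6% of all genes tested. This was Zfp593, a factor of 60S ribosome assembly, with 7.13 and 7.23 RPKM in resting cells, between 22.5 and 29.1 RPKM at 12 h (log2 change 1.75, SE 0.29, adjusted p = 8.45e-05) and between 15.9 and 19.0 RPKM at 24 h. Zfp622, another 60S maturation factor, had a log2 change of -0.26 (adjusted p = 0.071) at 24 h. Zfp598, the ligase that marks collided ribosomes, was at 22.3 and 27.03 RPKM in resting cells and between 34.0 and 40.8 RPKM at 24 h, with a log2 change of 0.57 (adjusted p = 0.013). Zfp91, a ubiquitin ligase of noncanonical NF-κB signalling, had a log2 change of -0.47 (adjusted p = 0.00071).

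Of the 17 members listed as regulators outside the KRAB group, 1 rose at 4 h (Zfp281), 1 fell at 12 h (Zfp367) and 2 fell at 24 h, Zfp652 and Zfp217. Of all genes tested 2.61% were called higher at 4 h, 16.4% lower at 12 h and 17.4% lower at 24 h. Zfp217, the orthologue of a breast cancer oncogene, was at 26.9 and 26.6 RPKM in resting cells, between 24.2 and 37.4 RPKM at 4 h and between 10.996 and 13.8 RPKM at 24 h (log2 change -1.04, SE 0.24, adjusted p = 0.0015). Zfp335, a chromatin regulator needed for T cell maturation, was between 14.1 and 20.6 RPKM in all 20 libraries of the time course. Zfp410, which activates Chd4, was between 13.3 and 16.9 RPKM. Zfp143, which binds promoters at chromatin loops, had a log2 change of -0.48 (adjusted p = 0.0022) at 24 h.

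Trim28, which encodes the partner of the KRAB zinc finger proteins, rose. It was at 140.3 and 151.8 RPKM in resting cells, at 192, 152 and 186 RPKM in Th0, Th1 and Th2 at 4 h and at 343, 386 and 332 RPKM at 24 h, a log2 change of 1.27 at 24 h that was called by limma. Of the 27 genes tested on a list of the TRIM28 silencing machinery, 1 was called at 4 h (lower), 6 at 12 h (3 higher and 3 lower) and 8 at 24 h (6 higher and 2 lower). These were 3.70%, 22.2% and 29.6% of the list, compared with 10.6%, 27.1% and 30.1% of all genes tested. The higher genes at 24 h were Trim28, Pphln1 (log2 change 1.06), Rbbp7 (1.35), Suv39h1 (1.06), Suv39h2 (1.33) and Uhrf1 (1.44), and the lower ones were Atf7ip (-1.54) and Chd3 (-1.66). Setdb1, the methyltransferase, was at 19.5 and 18.8 RPKM in resting cells and between 29.5 and 32.5 RPKM at 24 h, with a log2 change of 0.68. The median log2 change of the list at 24 h was 0.65, compared with -0.07 for the members and -0.04 for all genes tested.

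Between conditions, with the time point as a factor over the 18 cultures, 1 member was called for Th2 against Th0, compared with 2.01% of the 10737 genes tested (0.186% higher and 1.83% lower). None was called for Th2 against Th1, compared with 1.96% of all genes (0.568% higher and 1.39% lower), or for Th1 against Th0, compared with 0.494% (0.177% higher and 0.317% lower), where 39 members (16.7%) and 18 members (7.69%) had an unadjusted p under 0.05 in limma, compared with 25.3% and 16.4% of all genes. For Th2 against Th0 this held for 71 members (30.3%) and 41.2% of all genes. The median differences of the members were -0.06, -0.03 and -0.03 on the log2 scale. Each condition had 1 culture per time point, so the 6 time points stood in for replicates.

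The member that differed was Zfp945, a KRAB gene. In Th0 it was at 14.7, 18.6, 9.36, 6.69, 4.07 and 2.74 RPKM at 4 to 24 h, in Th1 at 16.9, 10.6, 6.15, 6.00, 2.92 and 1.51 RPKM, and in Th2 at 7.99, 3.42, 1.79, 2.60, 1.56 and 2.46 RPKM. Th2 was lower than Th0 at all 6 time points and lower than Th1 at the first 5. The log2 difference was -1.29 (SE 0.23, adjusted p = 0.000864) for Th2 against Th0 and -0.89 (SE 0.23, adjusted p = 0.0177) for Th2 against Th1, which was below 2-fold. Without the 24 h time point the latter was -1.17 (SE 0.18, adjusted p = 0.000713) and was called. For Th1 against Th0 it was -0.40 (adjusted p = 0.403).

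Smaller differences passed the adjusted p without reaching 2-fold. In limma, 42 of 234 members had an adjusted p under 0.05 for Th2 against Th0, beside 3178 of 10737 genes. For Th2 against Th1 these were 15 members beside 1310 genes, and for Th1 against Th0 4 members beside 244 genes. Only some of them are named here. Zfp287 was lower in Th2 than in Th0 by 0.82 (SE 0.12) and Zfp710 by 0.67 (SE 0.10) on the log2 scale. Zfp362 had the lowest levels in Th1, with log2 differences of -0.60 for Th1 against Th0 (SE 0.11, adjusted p = 0.00963) and 0.67 for Th2 against Th1 (SE 0.11, adjusted p = 0.00075). Zfp141 was also lower in Th1 than in Th0 (-0.61, SE 0.11, adjusted p = 0.00762), with between 6.53 and 10.2 RPKM in Th1 and between 12.3 and 17.0 RPKM in Th0, which did not overlap. Zfp426 was higher in Th2, by 0.43 (SE 0.10) against Th0 and 0.48 (SE 0.10) against Th1.

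After actinomycin, a slope is the change of log2(RPKM + 0.1) per hour over 4 libraries, 1 for each of 0, 1, 2 and 4 h. Since RPKM is relative to all mapped reads, a slope shows how a transcript fared beside the others and is not a half-life. In the 0 h library 115 members (49.1%) were below all 3 of the 16 h cultures and 55 (23.5%) above them, compared with 39.0% and 28.0% of all genes. The median log2 difference from their mean was -0.14, compared with -0.06 for all genes. A difference of at least 2-fold was seen for 1 member (0.427%), against 2.32% of all genes. The 10 monocyte and macrophage genes summed to between 55.2 and 78.7 RPKM in these 4 libraries and between 11.9 and 28.4 RPKM in the 16 h cultures. The 6 B cell genes summed to between 3.36 and 4.75 RPKM against between 17.6 and 20.1 RPKM, and 6 genes of CD8+ T and NK cells to between 12.2 and 15.1 against between 29.6 and 32.1 RPKM. The part of these cells in the slopes was not tested.

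The slope passed the threshold (adjusted p under 0.05 and at least 0.25 per hour) for 25 members, 8 rising and 17 falling. This share, 10.7%, lay close to the 10.3% of all 10571 genes tested, of which 6.01% fell and 4.33% rose. The median slope was -0.02 for the members and 0.00 for all genes. With median-of-ratios scaling the split was 6 and 21, and with upper-quartile scaling 9 and 12. Over all genes tested it was 458 and 635 in the main fit, and 375 and 721 and then 510 and 538 in these alternatives. Without the 0 h library 7 members passed, 6 rising and 1 falling, and the median slope was 0.05. In that fit 348 of 10578 genes rose and 304 fell, with a median of 0.02. Without the 4 h library 18 members passed, 1 rising and 17 falling, and the median slope of the members was -0.13. There, 117 of 10478 genes rose and 424 fell, with a median of -0.04.

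The course after actinomycin was not a steady decline. From 0 to 1 h the median of the members was -0.30 on the log2 scale, and 181 members were lower, compared with 57.6% of all genes and a median of -0.05. From 1 to 4 h the median was 0.15, and 91 members were lower, compared with 47.2% of all genes. All 3 later libraries were below the 0 h library for 120 members (51.3%), against 32.8% of all genes tested, and above it for 25 (10.7%), against 22%. The value was lower at every step for 33 members (14.1%), against 13% of all genes, and higher at every step for 17 (7.26%), against 9.18%. The values for the first hour rest on 1 library at 0 h and 1 at 1 h.

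**Figure D4:**
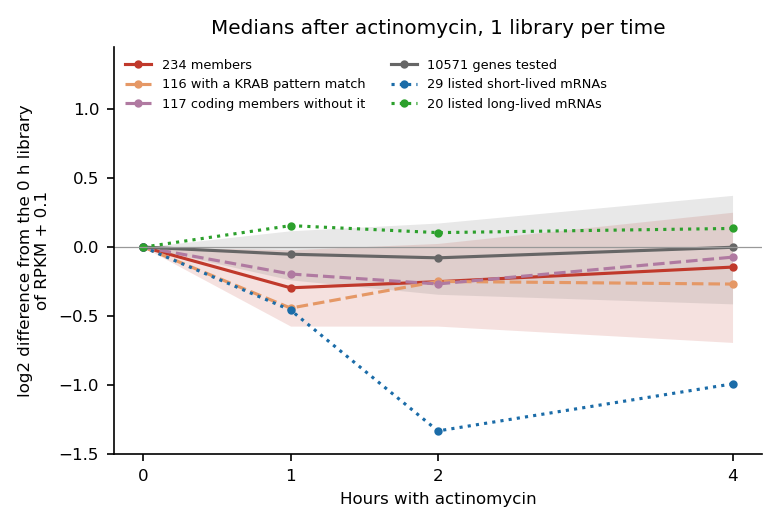
Median log2 difference from the 0 h library (RPKM + 0.1) against hours with actinomycin, with 1 library per time, for the members, the members with and without a KRAB match, all 10571 genes tested and lists of short-lived and long-lived mRNAs; bands run from the lower to the upper quartile for the members and for all genes. The median of the members was -0.30 at 1 h and -0.14 at 4 h, while that of the short-lived list was -0.99 at 4 h.

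The lists of mRNAs known as short-lived or long-lived give the scale. Of 29 short-lived genes such as Myc and Nfkbia, 14 fell and none rose, with a median slope of -0.25 per hour, and of 20 long-lived genes 1, Actb, fell and none rose, with a median slope of 0.03. The median slope of the numbered zinc finger genes, -0.02, lay between these values. At 1 h the median log2 difference from 0 h was -0.30 for them, -0.46 for the short-lived list and 0.16 for the long-lived list, and at 4 h it was -0.14, -0.99 and 0.14. At 1 h the median was -0.44 for the 116 members with a KRAB match and -0.20 for the 117 without, a difference that was not tested. By slope, 8 of the former fell and 3 rose, and 9 of the latter fell and 5 rose, where 6.01% of all genes fell and 4.33% rose. The median slope was -0.04 for the 66 members with TATTTAT in the 3′ UTR, of which 2 fell and 1 rose, and -0.01 for the 167 without, of which 15 fell and 7 rose. As shares, 3.03% and 8.98% fell, against 6.01% of all genes, and 1.52% and 4.19% rose, against 4.33%.

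Reads were available for 68 members. Of these, 47 were lower at 1 h than at 0 h beyond a conditional binomial 95% interval and 2 were higher. At 4 h against 0 h the numbers were 36 and 11, and at 4 h against 1 h they were 18 and 24. Such intervals were computed for members only, so no share over all genes stands beside these counts. These intervals cover counting error only and not the spread between cultures.

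The steepest fall was that of Zfp667, a KRAB gene, at 3.26, 2.29, 1.79 and 0.860 RPKM after 0, 1, 2 and 4 h, a slope of -0.45 per hour (SE 0.12, adjusted p = 0.00265). Zfp407, a nuclear protein with 23 fingers, was at 7.67, 5.05, 2.72 and 2.23 RPKM (slope -0.44, SE 0.09, adjusted p = 0.000165). Zfp110 (NRIF), which binds the neurotrophin receptor p75, was at 23.3, 14.4, 11.9 and 7.04 RPKM (slope -0.41, SE 0.07, adjusted p = 1.35e-06). All 3 were lower at every step. Zfp110 was the member that still passed as falling when the 0 h library was left out, with a slope of -0.34. The slope of Zfp407 was then -0.35 and that of Zfp667 -0.44, neither of them called, and Zfp667 was also not called without the 4 h library (-0.42).

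Other falls came mostly in the first hour. Zfp87 went from 13.7 to 5.51 RPKM in 1 h and was at 4.23 RPKM at 4 h (slope -0.37), and Zfp84 went from 6.95 to 3.12 and then to 2.06 RPKM (slope -0.39). The ratio of Zfp84 at 4 h to 0 h was 0.296 (95% interval from 0.247 to 0.353, from 153 and 736 reads). Zfp748 was at 8.69, 4.59, 3.33 and 2.66 RPKM (slope -0.39). Without the 0 h library the slopes of Zfp87, Zfp84 and Zfp748 were -0.11, -0.16 and -0.24 and were no longer called.

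Zfp296 kept its level for 1 h, at 2.51 and 2.52 RPKM, and then was at 1.29 and 0.905 RPKM (slope -0.38, SE 0.12, adjusted p = 0.016), a call that was lost without the 0 h, 1 h or 4 h library, with slopes of -0.43, -0.34 and -0.46. The slope of Zfp708 was -0.37, with 94.9% of its windows shared, nearly all with Gm28557, and was not called without the 0 h (-0.15) or 4 h (-0.67) library. Among the members acting on RNA, Zfp638 fell from 30.9 to 14.2 RPKM (slope -0.25, SE 0.06, adjusted p = 0.00137). Zfp281 fell from 62.7 RPKM at 0 h to 37.5, 26.1 and 28.7 RPKM (slope -0.26, SE 0.06, adjusted p = 0.0006). Neither Zfp638 nor Zfp281 was called without the 0 h library.

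The rises were relative to the other transcripts. Zfp488, known from oligodendrocytes, was at 13.7, 12.7, 21.4 and 33.5 RPKM after 0, 1, 2 and 4 h, a slope of 0.36 per hour (SE 0.06, adjusted p = 7.25e-06), and its ratio at 4 h to 0 h was 2.45 (95% interval from 2.29 to 2.61). About 15% of its windows were shared, and without the 4 h library the slope was 0.32 and was not called. Zfp287 was at 2.32, 2.35, 3.08 and 5.55 RPKM (slope 0.32, adjusted p = 0.011), a call lost without the 0 h, 1 h or 4 h library, with slopes of 0.40, 0.31 and 0.20. Zfp414, with 26.3% of its windows shared, was at 8.70, 9.19, 14.0 and 19.2 RPKM (slope 0.30, adjusted p = 0.000436), and its slope was 0.34 and not called without the 4 h library. Zfp579 stood at 6.09, 5.98 and 5.22 RPKM until 2 h and at 14.3 RPKM at 4 h, so its slope of 0.31 rested on the last library and was -0.11 without it. Zfp969, with a slope of 0.31, had all of its windows in Zfp968 and was not called without the 0 h, 1 h or 4 h library (0.23, 0.28 and 0.70).

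**Figure D5:**
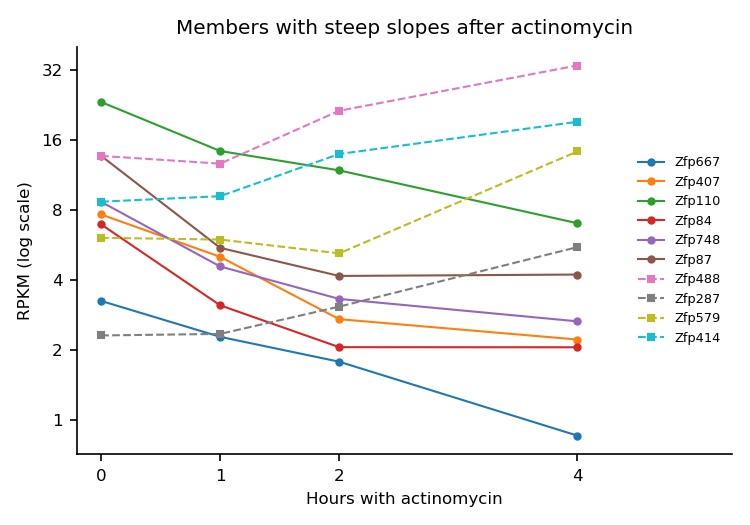
RPKM on a log scale against hours with actinomycin for 6 members with steep falls (circles, solid lines) and 4 with steep rises (squares, dashed lines), 1 library per time. Zfp110 fell from 23.3 to 7.04 RPKM, Zfp488 rose from 13.7 to 33.5 RPKM, and Zfp579 departed from its earlier level only at 4 h.

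The 2 genes with the largest rises in activation had nearly flat slopes. Zfp948 was at 13.0, 10.9, 11.8 and 12.3 RPKM after actinomycin (slope 0.00) and Zfp52 at 29.4, 20.9, 24.8 and 23.4 RPKM (slope -0.05). Across the 234 members, the slope and the 24 h change had a Spearman correlation of -0.26, and across 10424 genes of -0.29. The slope and the number of C2H2 fingers had one of -0.17 over 233 members, and the slope and the length of the 3′ UTR one of -0.11. These are correlations across genes, which share the same 4 libraries and are not independent replicates.

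The mean profile of all members over the 20 libraries of the time course was followed most closely by Zfp26 (Pearson r 0.88), Zfp758 (0.87), Zfp329 (0.85), Zfp597 (0.84) and Zfp866 (0.84). Zfp26 was at 10.8 and 11.3 RPKM in resting cells, between 14.6 and 18.3 RPKM at 4 h and between 9.36 and 10.8 RPKM at 24 h. For 87 members r was over 0.5 and for 73 it was under 0, with a median of 0.33.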

How the data were processed

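The authors deposited 1 table of RPKM values per gene symbol for 24 RNA-seq libraries, sequenced on an Illumina NextSeq. The submitters' processing notes name BWA and GRCm38, and the counting step is not given in the sources used here. In all, 1 row without a name was left out.

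Times and conditions were fitted on log2(RPKM + 0.5) and slopes on log2(RPKM + 0.1), by limma 3.58.1 (R 4.3.3) with the prior variance following mean intensity; p-values were adjusted by Benjamini-Hochberg over all genes that averaged 1 RPKM or more in the fit. Changes of low genes are understated on these scales. At each time the 3 cultures were treated as its libraries, and the slope fit has 1 library per time point. All 234 members passed these filters. The fits were tested on simulated data.

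Mapped reads were recovered from low values, within 0.02 of whole multiples. Ratios of reads have conditional binomial 95% intervals, which cover counting error only. Gene models, 3′ UTRs and translated sequences came from GENCODE M21. The KRAB pattern was adjusted on sequence matches alone, after a looser form had also matched unrelated genes, and the C2H2 pattern was searched in the translated coding sequences.

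The members, lists and tests were chosen with earlier results of these data known. Genes were named by rank: the most abundant 8, the largest 5 changes each way among those called in a comparison (the steepest 8 falls and 5 rises for slopes), the RNA and regulator lists, and those nearest the threshold or the mean profile. The neighbours of Zfp52, and members called below those ranks (such as Zfp281 at 4 h or Zfp428 and Zfp770 at 24 h), were named after their values were seen. The alternatives were other constants, filters, scalings and variance models, fewer libraries, and, added after seeing the data, leaving out members with over 10% shared windows and a block for condition.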

Additional observations from a re-analysis of the deposited data

How the results depend on the processing

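Replicate numbers allowed no pairing, because the groups compared share fewer than 2 of them. The conditions were instead matched by time point, which was a factor in their fit. With the condition as a block over the 18 cultures, 23 members were called for 24 h against 4 h, 9 higher and 14 lower. This alternative was chosen after seeing the data. Of the 10737 genes in that fit, 1429 were higher and 1393 lower. Of the alternative counts of called members, 119 stayed within 1.5 times the value reported and 12 did not. The 119 include counts of 0 that stayed at 0, and the comparisons between conditions gave only 0 or 1 throughout. A stricter filter of 5 RPKM leaves 172 members in the time course and 144 after actinomycin. It gave 5 members at 4 h, 10 at 12 h and 12 by slope. With this filter, 221 of 8478 genes were higher and 425 lower at 4 h, and 1048 and 1005 at 12 h. By slope, 231 of 7996 genes rose and 488 fell. Quantile normalization gave 22 at 4 h, 32 at 12 h and 34 at 24 h, and the cause was not tested. Of all 10897 genes, 501 were then higher and 755 lower at 4 h, 1529 and 1460 at 12 h, and 1777 and 1612 at 24 h. It moved the median of all genes at 12 and 24 h from -0.07 and -0.04 to 0.08 and 0.11. Median-of-ratios scaling moved that median to 0.05 and 0.10. The median of the members was 0.33 and 0.26 under quantile normalization, and 0.11 and 0.06 under median-of-ratios scaling. By slope, the count was 16 with a constant of 1 RPKM, 7 without a filter on low values and 16 without an intensity trend. In the same order, 322 genes rose and 502 fell, then 350 and 488 of 16416, and 456 and 576. The main fit had 458 and 635. Leaving out libraries gave between 10 and 15 members at 4 h, between 16 and 24 at 12 h and between 20 and 25 at 24 h. It gave between 19 and 32 for 24 h against 4 h and between 7 and 25 by slope. Between conditions it gave 1 throughout for Th2 against Th0, between 0 and 1 for Th2 against Th1, and 0 throughout for Th1 against Th0. Of all genes tested, 220 to 350 were higher at 4 h, 1063 to 1300 at 12 h and 1368 to 1444 at 24 h. Those lower numbered 728 to 942, 1653 to 1968 and 1759 to 1968. For 24 h against 4 h, 1315 to 1564 were higher and 1350 to 1550 lower. By slope, 117 to 482 rose and 304 to 631 fell. Between conditions, in the order above, 20 to 24, 59 to 64 and 15 to 21 were higher. Lower were 151 to 229, 131 to 167 and 21 to 39. The slope of Zfp579 was -0.11 without the 4 h library and 0.46 without the 0 h library. Leaving out members with over 10% shared windows, chosen after seeing the data, left 188 members. Of these, 6 were called at 4 h, 14 at 12 h, 18 at 24 h, 19 for 24 h against 4 h, and 19 by slope. As shares these were 3.19%, 7.45%, 9.57%, 10.1% and 10.1%. The shares of all 234 members were 3.85%, 7.26%, 8.55%, 9.83% and 10.7%. Those of all genes tested were 10.6%, 27.1%, 30.1%, 26.2% and 10.3%. Of the alternatives for called members named by rank, 677 kept the call, 42 lost it and 1 changed sign, and 34 of those lost were slopes, which rest on 4 libraries.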

Other observations

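Relatives of the numbered genes were also measured, and were chosen after their values were seen. Of 50 genes tested that are named Zbtb, Zkscan or Zscan with a number, which encode zinc finger proteins with BTB or SCAN domains, 9 were called at 24 h against resting cells (3 higher and 6 lower), compared with 30.1% of all genes tested. Their median slope after actinomycin was -0.07 per hour, and 33 of 50 were below the 0 h library in all 3 later libraries, compared with 32.8% of all genes tested. Of 20 genes named Zfp with a number and letters, Zfp36l1 and Zfp36l2 among them, 3 were called at 4 h, 2 higher and 1 lower, compared with 10.6% of all genes tested. Their median change in the first hour with actinomycin was -0.53 on the log2 scale, and 19 of 20 were lower, compared with 57.6% of all genes tested. The Zfp36 family members on the short-lived list, which encode decay factors, had slopes of -0.18 for Zfp36, -0.25 for Zfp36l1 and -0.21 for Zfp36l2, and that of Zfp36l1 was called.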
